A study of Mus musculus with 6 samples.

Results

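The 10 genes described here encode enzymes that let heart muscle burn ketone bodies and branched-chain amino acids, namely Oxct1, Bdh1, Acat1, Bcat2, Bckdha, Bckdhb, Dbt, Ppm1k, Ivd and Aldh6a1. They were taken by name, as 10 of the 46078 gene features in the count tables, together with every annotated feature whose exons lie across theirs on the other strand. RNA of cardiomyocytes, isolated from mouse hearts by ex vivo perfusion, was sequenced from 3 libraries with a knockdown of Acly (Acly_KD; genotype Acly-KD, made in MyH6-Cas9 mice) and 3 libraries labelled wildtype (control). The Myh6 promoter, which drives Cas9 there, is active in heart muscle cells. Age, sex, the guides and whether the controls carry Cas9 are not given in the sources used here, nor is it said whether the libraries came from separate animals. A p-value here thus reflects how far these libraries scatter, and that scatter may be technical. In bulk RNA, fewer cells of a type and less RNA per cell cannot be told apart.

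Ketone bodies reach the heart from the liver. Bdh1, in the mitochondrial matrix, oxidises beta-hydroxybutyrate to acetoacetate. Oxct1 then transfers coenzyme A from succinyl-CoA to acetoacetate, the step that commits ketones to oxidation and that the liver lacks, and Acat1 splits the product into acetyl-CoA. Leucine, isoleucine and valine are transaminated by Bcat2 and then decarboxylated by the branched-chain keto acid dehydrogenase, which is built from the alpha and beta subunits Bckdha and Bckdhb and the acyltransferase core Dbt. The phosphatase Ppm1k switches this complex on and the kinase Bckdk switches it off, and both enzymes have also been described to act on ATP citrate lyase, the product of Acly. Ivd and Aldh6a1 work downstream in the breakdown of leucine and of valine, and Acat1 also cleaves the thioester made from isoleucine.

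The deposited counts look strand-swapped, so that a feature's reads appear to come from the gene on the other strand. Of the nuclear features matched to the mm10 annotation, 18.0% have exons opposite to exons of another gene, and these hold 91.9% of the nuclear counts. Each member was therefore read in 2 ways, and its values are listed in the order of replicates 1, 2 and 3 of a group. As deposited, its own row was taken, which under a strand swap holds the few reads of the wrong strand and any reads of a gene opposite to it. In the reading of mRNA, it was given the counts of the feature that lies opposite to it. Reads in features numbered 271463 to 814765 per library, or 2.81% to 3.07% of the uniquely aligned reads, and 140295 to 445228 of them entered the reading of mRNA. Acly itself has no opposite exons and received 0, 0 and 0 reads in Acly_KD and 1, 5 and 6 reads in control. Under a strand swap these are wrong-strand reads and no measure of its mRNA, so the knockdown was not tested here. Among the markers of heart muscle cells, 8 of 8 had reads, and their summed level as deposited was 4440, 7985 and 15960 CPM (counts scaled to the library total) in Acly_KD and 11189 to 15170 in control, so that Acly_KD replicates 1 and 2 lay below all controls. So did these 2 libraries for endothelial markers, which summed as deposited to 7.44, 13.0 and 75.0 CPM in Acly_KD and 19.9 to 40.5 in control. The 6 endothelial markers held 130 reads in all over the 6 libraries, so these sums rest on few reads. In the reading of mRNA, with 2 of the 8 heart muscle markers measured, their sum was 39987 to 47153 CPM in Acly_KD and 40568 to 44464 in control. These 2 were Atp2a2, read through Gm43361 across 83 shared bases, and Myl2, read through Ccdc63 across 60. Most of the reads in each library were those of Gm43361, with 13671 against 850 of Ccdc63 in Acly_KD replicate 1. The sum thus rests largely on the count of 1 partner feature. Summed as deposited, fibroblast markers reached at most 27.0 CPM in any library and red blood cell markers at most 33.1. Pericyte and smooth muscle markers reached at most 120.0 and macrophage markers at most 113, where Ptprc and Adgre1 were at 0. No gene of these lists or of the endothelial list was in the reading of mRNA. Their sums are thus not comparable with the heart muscle sum in that reading. Atrial markers, of which Sln was at 0, summed to 35.7 to 56.5 CPM in Acly_KD and 65.0 to 81.0 in control as deposited. In the reading of mRNA, 2 of the 5 genes of this list were measured, Nppa and Kcnj3. Their sum spanned 4688 to 12904 CPM in Acly_KD and 3849 to 9384 in control. More of the reads in each library were those of Nppa, with 4310 against 376 of Kcnj3 in Acly_KD replicate 1. This sum thus follows Nppa more than the list. Xist, which silences an X chromosome in females, had 149 opposite-strand reads in control replicate 2, 137 in control replicate 3 and 0 in the other 4 libraries. These 2 controls stand apart within 1 group, so what sets them apart and the knockdown can be told apart only through control replicate 1.

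Of the 10 genes, 5 have exons of another gene opposite to theirs, and 3 of these could be read as mRNA. Oxct1 (chromosome 15, 4026383 to 4155344, plus strand) is read through BC037032, a noncoding gene that starts inside Oxct1 and runs away from it. They share 467 bases, the whole of the exon with which Oxct1 starts, which is 6.55% of the exonic length of BC037032. Bdh1 (chromosome 16, 31422280 to 31458901, plus strand) is read through the antisense feature Gm15743 across 533 bases in alternative 5′ exons, none of them coding, which is 28.0% of the exons of Gm15743. Aldh6a1 (chromosome 12, 84430717 to 84451004, minus strand) is read through Bbof1, a protein-coding gene, across 1078 bases in 3 stretches, or 25.3% of the exons of Bbof1. The counts used are those of the whole partner, so reads of the member, reads elsewhere in the partner and reads of other transcripts antisense to the partner cannot be told apart.

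**Figure D1:**
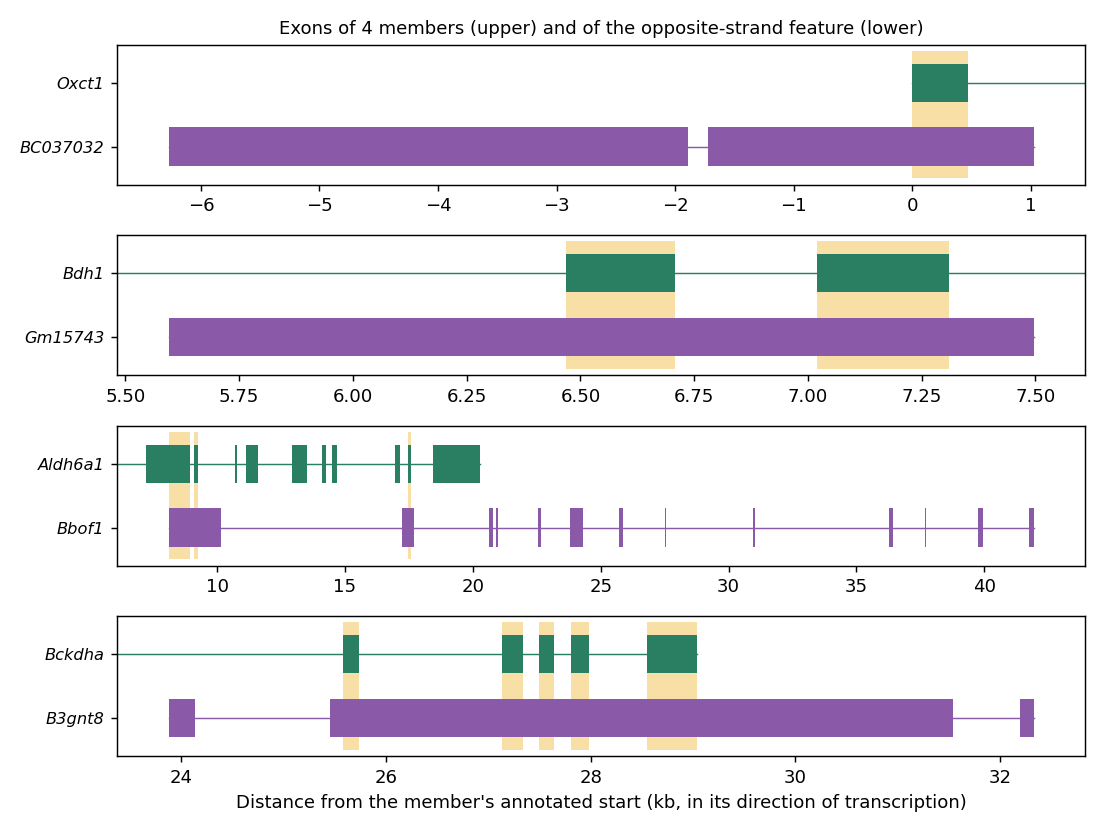
Exons of 4 members (green) above exons of the feature on the other strand (purple), with shared stretches in yellow, against distance in kb from the member's annotated start in its direction of transcription. Oxct1 shares its starting exon of 467 bases with BC037032, Bdh1 shares 2 stretches with Gm15743, Aldh6a1 shares 3 with Bbof1 and Bckdha shares 5 with B3gnt8.

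The coding stretches through which Oxct1 and Aldh6a1 were read are shown first, since a read of the member's mRNA that falls here is counted in the partner under a strand swap. The sequences are those of the GENCODE M21 transcripts on mm10, 5′ to 3′ on the member's strand. The capitals mark the start codon of Oxct1, at chr15:4026772-4026849, and the 3 stretches of Aldh6a1 are at chr12:84442071-84442145, chr12:84441763-84441924 and chr12:84433432-84433530, with no part singled out.
Oxct1, 78 coding bases: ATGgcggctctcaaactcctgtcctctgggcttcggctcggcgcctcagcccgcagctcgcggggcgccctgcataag
Aldh6a1, 75 coding bases: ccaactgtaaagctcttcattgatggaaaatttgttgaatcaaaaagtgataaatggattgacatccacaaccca
Aldh6a1, 162 coding bases: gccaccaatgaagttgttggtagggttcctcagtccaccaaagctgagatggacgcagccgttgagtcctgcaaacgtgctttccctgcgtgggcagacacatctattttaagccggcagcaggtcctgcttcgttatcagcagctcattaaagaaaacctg
Aldh6a1, 99 coding bases: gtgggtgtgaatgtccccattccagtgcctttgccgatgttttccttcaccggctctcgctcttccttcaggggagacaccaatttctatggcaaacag

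The partner of Oxct1 also runs across the start of the member, and the partner of Bdh1 across an alternative start inside the gene. The bases upstream of these starts are shown because reads from there are counted with the partner. These are taken from the RefSeq promoter table (GRCm38.p6), plus strand, at chr15:4026178-4026382 and chr16:31428503-31428747, and the windows lie wholly within exons of BC037032 and Gm15743.
Oxct1, 205 bases upstream: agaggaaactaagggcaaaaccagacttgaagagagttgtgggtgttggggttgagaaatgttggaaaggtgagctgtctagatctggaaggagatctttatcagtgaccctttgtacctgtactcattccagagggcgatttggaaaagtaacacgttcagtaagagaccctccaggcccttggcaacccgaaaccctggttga
Bdh1, 245 bases upstream of an alternative start: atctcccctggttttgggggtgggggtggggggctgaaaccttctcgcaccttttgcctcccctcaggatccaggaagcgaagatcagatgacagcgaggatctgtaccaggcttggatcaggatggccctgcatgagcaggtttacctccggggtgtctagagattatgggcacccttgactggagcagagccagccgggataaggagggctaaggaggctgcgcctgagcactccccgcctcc

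Read as mRNA, the ketone enzymes Oxct1 and Bdh1 and the valine enzyme Aldh6a1 had similar mean levels in Acly_KD and control, and 0 of the 3 passed the test. Of all 1453 genes tested in this reading, 0.413% passed at a Benjamini-Hochberg adjusted p of 0.05 (quasi-likelihood test of edgeR). The 95% intervals of the 3 fold changes ran from 0.786-fold at the lowest to 1.29-fold at the highest.

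The feature opposite to Oxct1 held 850, 649 and 1307 reads in Acly_KD and 445, 1293 and 1098 in control. As CPM, normalized by TMM within the genes of this reading, Oxct1 stood at 2374, 2958 and 3304 in Acly_KD and at 3166, 3002 and 2993 in control. The controls lay close together and the Acly_KD libraries spread to both sides of them, with Acly_KD replicate 1 the lowest and replicate 3 the highest of the 6. The means were 2879 ± 470 CPM in Acly_KD and 3054 ± 97.0 CPM in control (SD, n = 3 each). The log2 fold change was -0.08 (SE 0.13, 95% interval -0.35 to 0.18, adjusted p = 0.915 in edgeR), or 0.943-fold with an interval of 0.786 to 1.13.

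Bdh1, which acts one step before Oxct1 on beta-hydroxybutyrate, was read from 303, 265 and 569 reads in Acly_KD and 146, 531 and 416 reads in control. Its level was 846, 1208 and 1438 CPM in Acly_KD and 1039, 1233 and 1134 CPM in control. Here too the lowest and the highest library were Acly_KD replicates 1 and 3, and the groups overlapped. The log2 fold change was 0.029 (SE 0.16, 95% interval -0.31 to 0.36, adjusted p = 0.957 in edgeR), from means of 1164 ± 298 and 1135 ± 97.2 CPM (SD, n = 3 each).

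Aldh6a1, the methylmalonate semialdehyde dehydrogenase of valine breakdown, was read from 432, 334 and 582 reads in Acly_KD and 179, 591 and 510 reads in control. Its level was 1206, 1522 and 1471 CPM in Acly_KD and 1273, 1372 and 1390 CPM in control. Acly_KD replicate 1 was again the lowest, while replicates 2 and 3 lay above all controls. The log2 fold change was 0.05 (SE 0.13, 95% interval -0.22 to 0.32, adjusted p = 0.939 in edgeR), from means of 1400 ± 170 and 1345 ± 63.0 CPM (SD, n = 3 each).

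**Figure D2:**
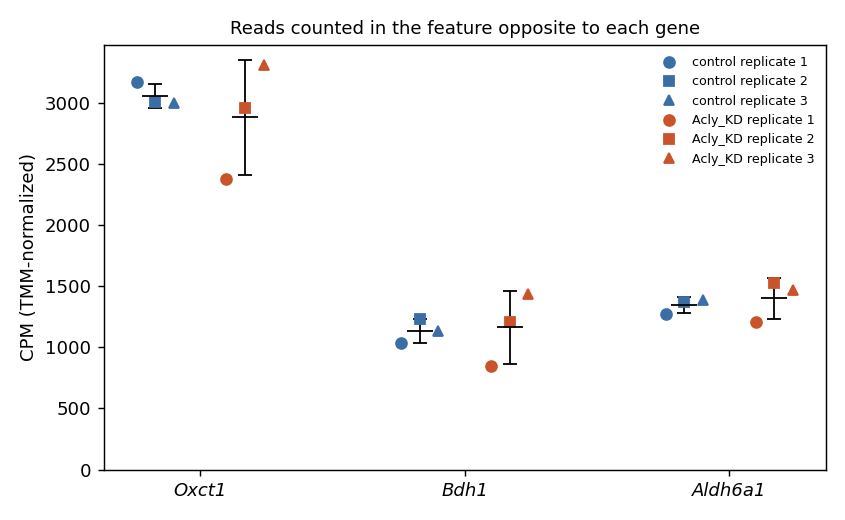
TMM-normalized CPM of the 3 genes read through the opposite feature, per library (points; circle, square and triangle for replicates 1, 2 and 3) with mean and SD (black, n = 3). For Oxct1 the controls sit between 2993 and 3166 CPM and the Acly_KD libraries between 2374 and 3304, and the groups overlap for all 3 genes.

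Groups that do not overlap, with all Acly_KD libraries on one side of all controls, were found for 14.7% of the genes in the reading of mRNA and for 0 of these 3. Acly_KD replicate 1 was the lowest of the 6 libraries for each of them. Without that library the log2 fold changes were 0.041 for Oxct1, 0.22 for Bdh1 and 0.15 for Aldh6a1, so the sign turned for Oxct1 and stayed for the other genes. The partners' own rows hold the same counts as these 3 genes read as mRNA. Their values as deposited are thus no separate measurement and differ only through the set of features fitted. The log2 fold changes there were -0.06 for BC037032 (SE 0.14), 0.05 for Gm15743 (SE 0.17) and 0.08 for Bbof1 (SE 0.15). Adjusted p was 0.965, 0.976 and 0.965 in edgeR.

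As deposited, the members' own rows held few reads, and 6 of the 10 passed the filter on low counts, namely Oxct1, Bdh1, Acat1, Bckdha, Ivd and Aldh6a1. Of these, 0 passed the test, as did 0 of all 2952 features (0%; 180 had an unadjusted p under 0.05, among them 0 members, and DESeq2 called 0 as well). The values of all 6 were below zero and their median was -0.51 on the log2 scale. Of all features tested, 54.4% were below zero and their median was -0.04. Features with opposite exons hold 91.9% of the nuclear counts and under a strand swap would hold mRNA reads of another gene. All features are thus not a like set for rows of few wrong-strand reads. Own-row ratios over 125 other genes are given further on. In groups that do not overlap there were again 0 of the 6, against 11.4% of all features.

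Acat1 (chromosome 9, 53580522 to 53610382, minus strand), the thiolase that ends ketone oxidation, has no exons opposite to it and can only be read at its own row. It held 21, 14 and 49 reads in Acly_KD and 25, 54 and 28 in control. As TMM-normalized CPM these were 32.2, 34.2 and 61.2 in Acly_KD and 91.0, 63.9 and 40.3 in control. Acly_KD replicates 1 and 2 lay below all controls and replicate 3 among them. The same 2 libraries were below all controls in the sums as deposited of heart muscle markers and, on few reads, of endothelial markers. Under a strand swap those sums are not levels of the markers' mRNA. In the reading of mRNA, the 2 heart muscle markers measured, Myl2 and chiefly Atp2a2, summed to 39987 and 47153 CPM in Acly_KD replicates 1 and 2. The controls ran from 40568 to 44464 CPM. The part of these sums in the value of Acat1 was not tested. On the log2 scale Acat1 differed by -0.53 (SE 0.38, 95% interval -1.35 to 0.29), with an adjusted p of 0.930 in edgeR.

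The own row of Oxct1 held 15, 17 and 44 reads in Acly_KD and 23, 47 and 25 in control, or 23.0, 41.5 and 55.0 CPM against 83.7, 55.6 and 35.9 CPM. Control replicate 3 lay below both Acly_KD replicates 2 and 3. Here the log2 difference was -0.48 (SE 0.41, 95% interval -1.35 to 0.39), with an adjusted p of 0.959 in edgeR.

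Bdh1 had the lowest value of the 6, with 15, 20 and 32 reads in Acly_KD and 11, 50 and 55 in control. These were 23.0, 48.8 and 40.0 CPM in Acly_KD and 40.1, 59.2 and 79.1 CPM in control, so that control replicate 1 alone fell within the range of the Acly_KD libraries. Bdh1 thus stood at a log2 fold change of -0.73 (SE 0.38, 95% interval -1.54 to 0.07, adjusted p = 0.865 in edgeR). The interval of Oxct1 at its own row includes the one found for its mRNA, and the interval of Bdh1 overlaps the one found for its mRNA in part.

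Among the branched-chain genes, the own row of Bckdha (chromosome 7, 25629946 to 25658981, minus strand), the alpha subunit of the dehydrogenase, held 4, 7 and 26 reads in Acly_KD and 11, 22 and 22 in control. At 6.14, 17.1 and 32.5 CPM in Acly_KD and 40.1, 26.0 and 31.6 CPM in control, replicates 1 and 2 of Acly_KD were below all controls and replicate 3 was not. For Bckdha the log2 fold change came to -0.72 (SE 0.54, 95% interval -1.87 to 0.42, adjusted p = 0.930 in edgeR). It was -0.27 without Acly_KD replicate 1 and -1.47 without Acly_KD replicate 3, with adjusted p of 0.996 and 0.182 in edgeR. The marker sums given for Acat1, low in Acly_KD replicates 1 and 2 as deposited, apply here as well, and their part was not tested.

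The swap can be read the other way at this gene. B3gnt8, which encodes a glycosyltransferase, shares 1171 exonic bases with Bckdha, but through 1 of its 4 transcripts, which is not in the basic set of the annotation. B3gnt8 held 15 reads in all, 0, 5 and 2 in Acly_KD and 2, 1 and 5 in control, against 92 in the row of Bckdha. Since the feature with more counts is read as the mRNA of its partner, the reads in the row of Bckdha went to B3gnt8 in the reading of mRNA, where their log2 difference was -0.70 (SE 0.49), with an adjusted p of 0.721 in edgeR. The mRNA of Bckdha therefore has no value of its own there. The sources used here do not say whether the annotation behind the counts held that B3gnt8 transcript.

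Ivd (chromosome 2, 118861954 to 118882909, plus strand), the isovaleryl-CoA dehydrogenase of leucine breakdown, held 7, 7 and 13 reads in Acly_KD and 6, 15 and 7 in control. Its log2 fold change was -0.12 with a 95% interval from -1.30 to 1.06 (adjusted p = 0.977 in edgeR), an interval that includes a 2-fold change in either direction. The own row of Aldh6a1 held 12, 10 and 19 reads in Acly_KD and 3, 29 and 16 in control, with a log2 fold change of -0.14 and an interval from -1.16 to 0.87 (adjusted p = 0.976 in edgeR). The controls of Aldh6a1 enclosed the Acly_KD libraries on both sides.

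**Figure D3:**
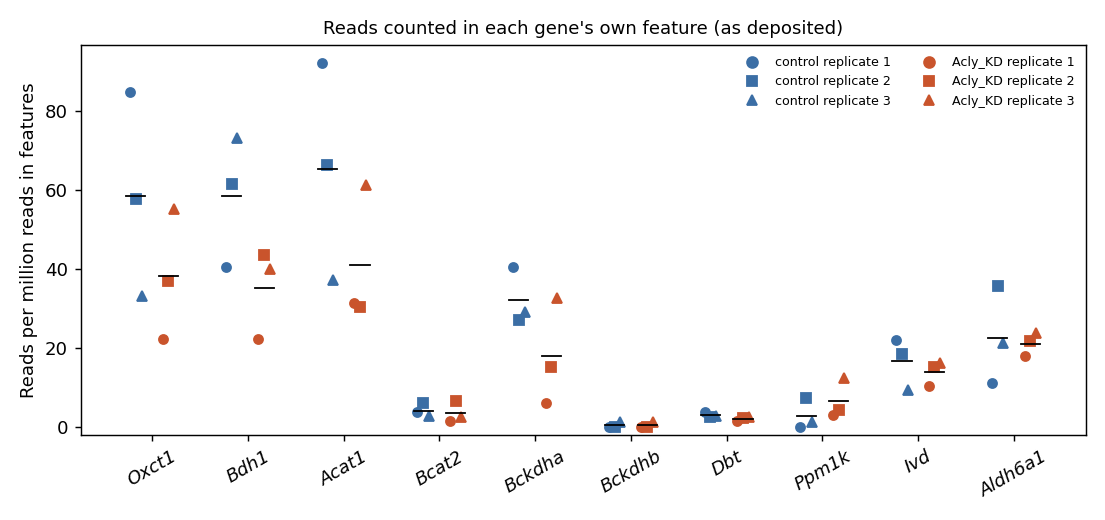
Reads in each gene's own row as CPM of the reads in features, not TMM-normalized, for all 10 members and the 6 libraries (points; black lines are group means, n = 3). Acly_KD replicates 1 and 2 lie below all controls for Acat1 and Bckdha, and the groups overlap for all 10 genes.

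The other 4 members did not pass the filter and have no test. Ppm1k (chromosome 6, 57506502 to 57535468, minus strand), the phosphatase of the dehydrogenase, had 2, 2 and 10 reads in Acly_KD and 0, 6 and 1 in control. Its reads were few and uneven within both groups, and the count of 0 in control replicate 1, the shallowest library, allows up to 11.1 CPM (3 counts), near the 12.5 CPM of the highest Acly_KD library. Bcat2 (chromosome 7, 45570153 to 45589711, plus strand), the mitochondrial transaminase, had 1, 3 and 2 reads in Acly_KD and 1, 5 and 2 in control. The feature opposite to Bcat2 in the annotation, 0610005C13Rik, shares 622 exonic bases with it and has no row in the tables used here, so Bcat2 was not read as mRNA. Dbt (chromosome 3, 116513070 to 116549981, plus strand), the core of the complex, had 1 or 2 reads in each library, 4 in all in Acly_KD and 5 in control. Bckdhb (chromosome 9, 83925145 to 84124240, plus strand), the beta subunit, had 1 read in each group. At 0 reads a library allows up to 3.68 to 11.1 CPM, and these limits cover counting error only. For Bcat2, Dbt, Bckdhb and Ppm1k, a difference between the groups was thus not detectable with so few reads in the own rows.

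Per kilobase of exon, and scaled to CPM, the own rows fell into 3 tiers. Acat1 (14.1 ± 6.53), Bckdha (13.2 ± 6.57), Oxct1 (13.1 ± 6.03) and Bdh1 (12.0 ± 4.59, SD over the 6 libraries) were highest and did not differ from each other beyond their spread. In Acly_KD replicate 1 Bckdha was down at 3.13, level with Aldh6a1 at 3.09. Aldh6a1 (3.78 ± 1.39) and Ivd (2.78 ± 0.878) followed, again within their spread, and Bcat2 (0.982 ± 0.528), Ppm1k (0.789 ± 0.759), Dbt (0.744 ± 0.214) and Bckdhb (0.238 ± 0.369) were lowest. Oxct1, Bdh1 and Acat1, the enzymes of ketone oxidation, were thus all in the highest tier of the mean over libraries, together with Bckdha. Under a strand swap these are levels of wrong-strand reads and not of the members' mRNA. For Oxct1, Bdh1, Bcat2, Bckdha and Aldh6a1 they may also hold reads of the gene on the other strand.

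For the 3 genes with both readings, reads in the own row could be set against reads in the opposite feature of the same library. Oxct1 had 1.76, 2.62 and 3.37 own-row reads per 100 opposite reads in Acly_KD and 5.17, 3.63 and 2.28 in control. Bdh1 had 4.95, 7.55 and 5.62 in Acly_KD and 7.53, 9.42 and 13.2 in control, and Aldh6a1 had 2.78, 2.99 and 3.26 in Acly_KD and 1.68, 4.91 and 3.14 in control. Acly_KD replicate 1 had the lowest ratio of the 6 libraries for Oxct1 and Bdh1, and control replicate 1 for Aldh6a1. The groups overlapped for all 3 genes, for Bdh1 by a margin of 7.55 against 7.53.

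Over 125 other genes measured in both readings, each gene's ratio was set against its geometric mean over all 6 libraries. The median over these genes, with the 6 libraries scaled to a geometric mean of 1, was 0.663, 0.851 and 1.32 in Acly_KD and 1.19, 1.14 and 0.991 in control. The libraries with the lowest ratio are thus the ones in which the own rows of Acat1 and Bckdha lay below the controls. Without these 2 libraries, with the lone Acly_KD replicate 3 assumed to vary like the controls, Acat1 stood at -0.0090 and Bckdha at 0.054 on the log2 scale. That move follows from which libraries were left out and is no test of the ratio. Oxct1 then stood at 0.0015 and Bdh1 at -0.64 (SE 0.44, adjusted p = 0.910 in edgeR), and 3 of the 6 values were below zero. With a term for the ratio in the fit, Bdh1 stood at -0.70 (SE 0.36), Bckdha at -0.48 (SE 0.44), Acat1 at -0.25 (SE 0.34) and Oxct1 at -0.19 (SE 0.35), with adjusted p of 0.681 to 0.990 in edgeR. The part of this ratio in the lower own-row values was not tested further. In a separate fit, whose term sets the 2 controls with Xist reads apart from the other 4 libraries, the own-row values moved apart, to -0.12 for Bdh1 (SE 0.60), -1.07 for Acat1 (SE 0.52), -1.06 for Oxct1 (SE 0.56), -1.06 for Bckdha (SE 0.82), -0.58 for Ivd (SE 0.85) and 1.00 for Aldh6a1 (SE 0.86). Adjusted p ran from 0.955 to 0.993 in edgeR, and 0 of the 6 passed. Control replicate 1, the shallowest library, alone stands for the controls in this fit. Its own rows held 3 reads of Aldh6a1 and 11 each of Bdh1 and Bckdha. Read as mRNA with the same term, Oxct1 stood at -0.14 (SE 0.18), Bdh1 at 0.16 (SE 0.26) and Aldh6a1 at 0.13 (SE 0.19). Own-row values also depended on single libraries, and with 1 left out at a time they ran from -0.84 to -0.23 for Acat1, from -0.77 to -0.16 for Oxct1 and from -0.93 to -0.47 for Bdh1.

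**Figure D4:**
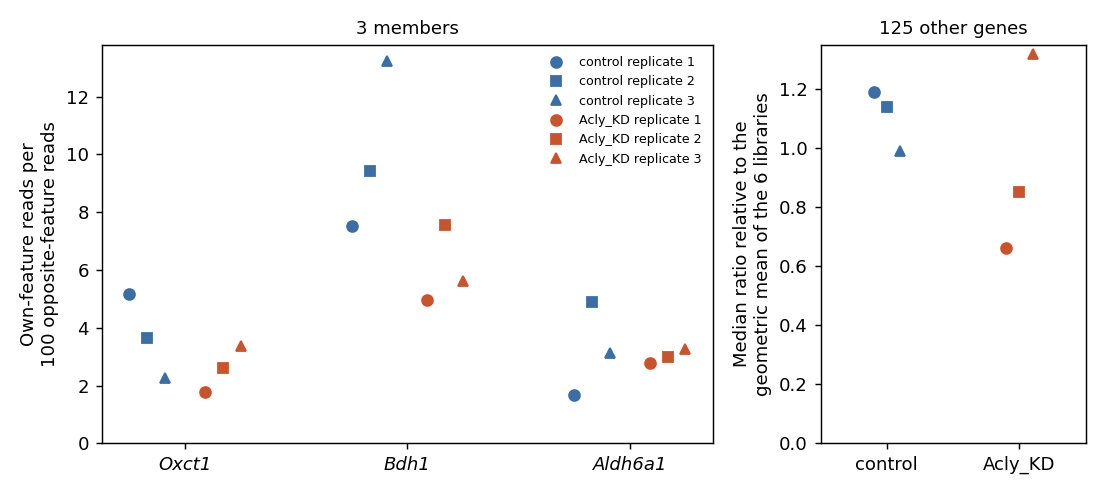
Left, own-row reads per 100 reads in the opposite feature for Oxct1, Bdh1 and Aldh6a1 in each library. Right, the median ratio over 125 other genes against the geometric mean of all 6 libraries, which is lowest in Acly_KD replicates 1 (0.663) and 2 (0.851) and highest in Acly_KD replicate 3 (1.32).

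**Figure D5:**
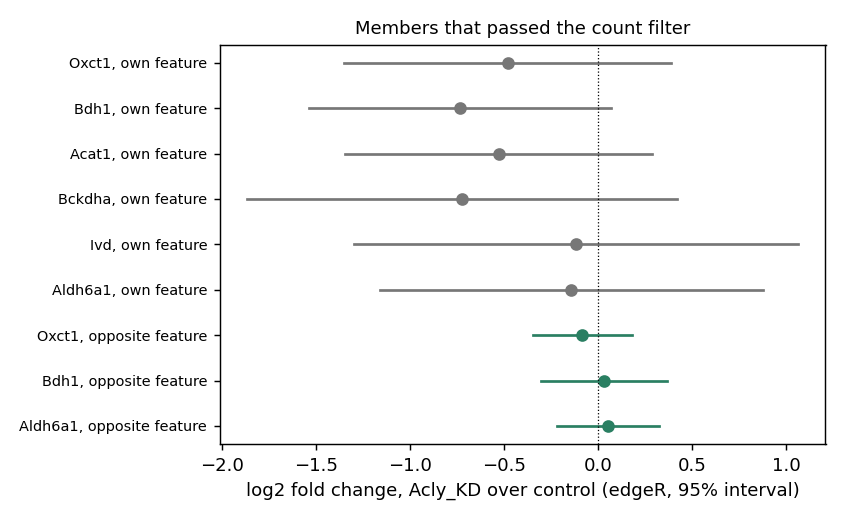
Log2 fold change of Acly_KD over control with 95% interval (edgeR, n = 3 each) for the members that passed the filter, at the own row (grey) and through the opposite feature (green). All 9 intervals include zero, and those of the opposite features are narrower, from -0.35 to 0.36 at most.

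Of 10 other genes of ketone metabolism and transport, 3 were tested as deposited and 0 passed, as for all features (0%). The values of all 3 were below zero, with a median of -0.57 against -0.04 over all features, which are again not a like set. Bsg, the chaperone of the monocarboxylate transporters that bring ketones into the cell, had a log2 fold change of -0.73 (SE 0.52) and Slc16a1, one of these transporters, -0.57 (SE 0.38), with adjusted p of 0.930 and 0.906 in edgeR. Slc16a1 read 32.2, 26.9 and 52.5 CPM in Acly_KD and 69.2, 40.2 and 64.7 CPM in control, and its groups overlapped. Acly_KD replicates 1 and 2 lay below all controls for Slc16a1 and for Bsg, which read 27.6, 53.7 and 136 CPM in Acly_KD and 157, 124 and 99.2 CPM in control. Slc16a3, a transporter better known for lactate export, stood at a fitted log2 fold change of -0.23 (SE 0.66). Its means of 15.6 and 15.4 CPM in Acly_KD and control do not share that sign, and control replicate 1 had 0 reads. None of the 10 could be read as mRNA.

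Of 28 other names listed for branched-chain amino acid breakdown and transport, of which 27 have a row, 6 were tested as deposited and 2 as mRNA, and 0 passed in either reading (0% and 0.413% of all features). Mccc1, the alpha subunit of the carboxylase that follows Ivd in leucine breakdown, was read through B230207O21Rik across 321 shared bases. It stood at 598, 597 and 685 CPM in Acly_KD and 662, 632 and 594 CPM in control, with a log2 fold change of 0.0033 and a 95% interval from -0.30 to 0.31 (adjusted p = 0.993 in edgeR). Mut, the mutase that turns methylmalonyl-CoA, made from the propionyl units of valine and isoleucine, into succinyl-CoA, was read through Cenpq across 95 shared bases. It stood at 360, 419 and 359 CPM in Acly_KD and 299, 378 and 425 CPM in control. Its log2 fold change was 0.011 (95% interval -0.36 to 0.39, adjusted p = 0.986 in edgeR). The levels of both genes overlapped between the groups.

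Under a strand swap, own-row CPM is no level of a gene's mRNA. By mean own-row CPM, the 4 highest of the branched-chain list were Hadha, a subunit of the trifunctional protein, Acaa2, a thiolase, Pcca, a subunit of propionyl-CoA carboxylase, and Aldh2, an aldehyde dehydrogenase. Their log2 fold changes were -0.10 (SE 0.25), -0.55 (SE 0.63), 0.17 (SE 0.36) and -0.54 (SE 0.51), with adjusted p of 0.959 to 0.965 in edgeR. Acly_KD replicates 1 and 2 lay below all controls for Acaa2, at 10.7 and 36.6 CPM where the lowest control had 50.3, and for Aldh2, at 13.8 and 19.5 CPM where the lowest control had 25.9. In all, 5 of the 9 genes of both lists tested as deposited had this order, as did Acat1 and Bckdha among the 6 members and 561 of all 2952 features. Bckdk, the kinase that opposes Ppm1k, had 0, 0 and 4 reads in Acly_KD and 0, 4 and 0 in control, too few for a test. Dld, the dehydrogenase subunit that this complex shares with pyruvate dehydrogenase, had 4, 0 and 19 reads in Acly_KD and 0, 17 and 9 in control.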

How the data were processed

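Per the labels' protocols, poly-A RNA of isolated cardiomyocytes went into strand-marking libraries with adapters for paired-end reads. The submitters' processing notes name mm10 as the build and, with no versions, DESeq2, HTSeq, SAMtools, TopHat2 and FastQC. The sources used here give neither the annotation nor the strand setting of the counting. What the authors deposited is 1 file per library of raw counts per feature, not normalized. Rows that name no gene held 97.4% to 97.7% of all entries and stayed out of library sizes and tests.

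Libraries were grouped by title. Within a group their counts differed by a chi-square per degree of freedom of 3.43 to 10.1, so none was a repeat. Features were matched by identifier to GENCODE M21 (mm10), which held 45229 of 46078. In the reading of mRNA, a nuclear feature's counts were credited to the gene that made up 80% or more of its exonic overlap on the other strand, given 50 or more shared bases and a lower count, or no row, of that gene itself. This left 2973 genes. Both readings were tested with edgeR 4.0.16 (R 4.3.3; TMM, filterByExpr at a minimum of 10 counts, a robust quasi-likelihood fit, Benjamini-Hochberg over all features tested at 0.05), and the steps were tested on simulated data. In these simulated data the test recovered 3.28% of 1.5-fold and 35.5% of 2-fold changes as deposited, and 34.9% and 69.4% as mRNA. Of the simulated calls, 7.25% as deposited and 4.55% as mRNA fell on unchanged features. Each standard error is the fold change over the root of its F statistic, and 95% intervals use the t distribution. The ratio of own-row to opposite reads used non-member genes with a mean of at least 10 reads in both readings, a read in every library and at most 20 own-row reads per 100 opposite reads, a cap chosen after seeing the data. It was taken on the log2 scale with 0.5 added to each count. The floor for 0 reads is 3 counts per library.

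Members, gene lists, the reading of mRNA and the rule for named genes were chosen with earlier results of these data known. That rule took all members and opposite features, the passing or otherwise the 4 genes of highest mean CPM of each wider list, and Acly. Bckdk and Dld are named outside that rule, with their values already seen. Alternatives were DESeq2 1.42.0, its size factors, library totals, other filters, other forms of the mRNA rule, a replicate block, a term for the ratio and each library left out; library size from all uniquely aligned reads, 2 libraries left out together and a term for control replicates 2 and 3 were added after seeing the data. Of the 10 members, 8 had an entry in the RefSeq promoter table.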

Additional observations from a re-analysis of the deposited data

How the results depend on the processing

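The 6 members tested as deposited and the 3 tested as mRNA gave 144 values under the alternatives. Of these 127 kept the direction and the side of the threshold, 17 changed sign and 0 passed the threshold in edgeR or DESeq2. Leaving out 1 library gave -0.20 to 0.041 for Oxct1, -0.16 to 0.22 for Bdh1 and -0.011 to 0.15 for Aldh6a1 as mRNA, and -0.34 to 0.31 for Aldh6a1, -0.40 to 0.10 for Ivd and -1.47 to -0.27 for Bckdha as deposited, and -1.60 to -0.22 for B3gnt8 as mRNA. It gave -0.086 to 0.036 for BC037032 and -0.039 to 0.21 for Gm15743. Taking every uniquely aligned read as the library size, an alternative chosen with the data in view, moved the median of all features by -0.10 as deposited and -0.08 as mRNA. There Bdh1 (-0.048) and Aldh6a1 (-0.027) as mRNA and Gm15743 (-0.046) and Bbof1 (-0.025) as deposited changed sign. Without Acly_KD replicates 1 and 2 this held for Oxct1 in both readings (0.0015 as deposited, 0.089 as mRNA), Bckdha (0.054), Ivd (0.045), BC037032 (0.050) and B3gnt8 (0.10). It also held for Ivd (0.043) and BC037032 (0.0089) with the term for the ratio, for Aldh6a1 as deposited with the term for control replicates 2 and 3 (1.00, SE 0.86), for BC037032 without a filter (0.020) and for Gm15743 with library totals (-0.012). The cause was not tested.

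Over all features as deposited, where the test called 0 higher and 0 lower, it called 2 and 1 without a filter, 2 and 1 with the term for the ratio, and 10 and 26 without Acly_KD replicates 1 and 2. With 1 library left out it called 0 to 23 higher and 0 to 46 lower, the most without Acly_KD replicate 3; without Acly_KD replicate 1 there was 1 higher, and without control replicate 1 there were 2 lower. In the reading of mRNA, with 3 higher and 3 lower, it called 12 and 18 without a filter, 0 and 0 with a minimum count of 30, 0 and 0 with the term for control replicates 2 and 3, and 1 and 1 without Acly_KD replicates 1 and 2. DESeq2 called 1 higher, the limit of 200 shared bases 1 higher and every uniquely aligned read as library size 0 higher, and with 1 library left out the calls were 0 to 8 higher and 1 to 12 lower, again the most without Acly_KD replicate 3, and each of the 6 omissions moved a count by over 1.5 times. Beside the calls of 0, the unadjusted p was under 0.05 for 50 higher and 48 lower genes with the minimum count of 30, and for 52 and 44 with the term.

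The replicate block, which uses the numbers in the titles, called 0 features as deposited and 5 higher and 7 lower genes as mRNA, and gave 0.0097 for Aldh6a1 as deposited. Deviations from the group means correlated at -0.18 to -0.018 between libraries of the same number as deposited. In both readings no library correlated best with its own number, so the libraries share a number and are not shown to be pairs. Low counts limit the members at their own rows, where 4 of 10 had too few reads for a test.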
